A study of Mus musculus with 4 samples.

Results

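Chemokine ligands are small secreted proteins that guide moving cells, and 33 of their genes were followed here across stromal cells of mouse lymph nodes that drained tumours. Members were the genes with a probe set of 1 symbol whose name starts with Ccl or Cxcl and a digit, together with Cx3cl1 and Xcl1, which gave 33 of the 18193 genes measured. They were covered by 51 probe sets, and each gene was represented by the probe set with the highest mean over the 4 arrays. A further 4 probe sets that list several chemokine gene copies fell outside the rule, and with them Ccl19 and Ccl21a, so these were not analysed here.

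All 4 preparations came from female SCID/NOD mice, an immunodeficient strain, aged 6 to 8 weeks, that carried subcutaneous tumours of the human embryonic kidney line 293. In the metastatic group (2 arrays) the tumours were 293-VEGF-D cells, which overexpress the lymphatic growth factor VEGF-D, and nodes were used only when visibly enlarged. In the non-metastatic group (2 arrays) they were 293-Apex cells without VEGF-D. Tumours were grown for 3 to 4 weeks, to between 1600 and 2500 mm3, before the draining axillary node was removed. Each preparation pooled the nodes of 1 to 5 mice, and its cells spent a short time in endothelial growth medium before podoplanin-positive cells were picked with magnetic beads. Podoplanin is carried by lymphatic endothelium and also by fibroblastic reticular cells. The sorting label gives depletion of tumour cells and leukocytes before culture for the metastatic preparations and no depletion for the non-metastatic ones, while the growth protocol does not separate the groups. VEGF-D, node enlargement, depletion as labelled and metastasis therefore cannot be told apart. In pools of this kind, fewer cells of a type and less RNA per cell cannot be told apart either.

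The labels call the cells an endothelial fraction. Of 11 measured markers of fibroblasts and fibroblastic reticular cells, 8 lay above the 75th percentile of all probe sets and 1 below their median, with Col1a1 at percentile 99.5 and Lum at 38.0. Of 10 measured markers of lymphatic endothelium, 2 lay above the 75th percentile, among them podoplanin's own gene Pdpn at 93.2, and 5 below the median, with the transcription factor gene Prox1 the lowest at 9.82. Of 14 markers of blood and pan endothelium, 0 lay above the 75th percentile and 8 below the median; Egfl7 and Kdr stood at percentiles 69.7 and 68.9, and Cdh5 and Pecam1 at 48.7 and 32.4. Signals of different probe sets are not RNA amounts, so these percentiles give no share of cell types, and the cells are named below by their selection, as podoplanin-selected stromal cells.

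Chemokines act through G protein-coupled receptors on leukocytes and are held on heparan sulfate at the surface of the cells that make them. CXC ligands of CXCR2 attract neutrophils, CCR2 ligands attract monocytes, CXCR3 ligands are induced by interferon and attract T and NK cells, and homeostatic ligands such as Cxcl12 and Cxcl13 set up the compartments of a lymph node. Inflammatory ligands are switched on in stromal cells through NF-kappaB, whose binding sites lie close to the start of several of their genes.

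The sequences upstream of the transcription start are shown for 6 members because they set a brighter beside a dimmer member of a cluster: Cxcl1 beside its neighbours Cxcl2 and Cxcl3, and Ccl9 beside Ccl6, with Cxcl13 as a bright member from outside these clusters. Each is the 250 bases before the RefSeq start on the gene's own strand (build GRCm38.p6), 5′ to 3′, with matches to the NF-kappaB consensus on either strand in capitals. The windows are chr5:90890995-90891244 (plus strand) for Cxcl1, chr5:90903649-90903898 (plus) for Cxcl2, chr5:90785851-90786100 (plus) for Cxcl3, chr11:83578637-83578886 (minus) for Ccl9, chr11:83593088-83593337 (minus) for Ccl6 and chr5:95956689-95956938 (plus) for Cxcl13.
Cxcl1: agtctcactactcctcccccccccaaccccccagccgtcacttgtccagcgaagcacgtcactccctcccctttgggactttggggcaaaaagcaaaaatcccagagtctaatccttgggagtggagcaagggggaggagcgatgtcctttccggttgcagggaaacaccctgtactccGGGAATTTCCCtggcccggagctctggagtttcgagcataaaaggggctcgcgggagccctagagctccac
Cxcl2: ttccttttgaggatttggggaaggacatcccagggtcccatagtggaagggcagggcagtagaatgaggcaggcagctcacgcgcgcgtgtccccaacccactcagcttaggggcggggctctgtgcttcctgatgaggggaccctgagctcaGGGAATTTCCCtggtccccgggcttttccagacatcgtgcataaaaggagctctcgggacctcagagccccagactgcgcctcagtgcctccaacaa
Cxcl3: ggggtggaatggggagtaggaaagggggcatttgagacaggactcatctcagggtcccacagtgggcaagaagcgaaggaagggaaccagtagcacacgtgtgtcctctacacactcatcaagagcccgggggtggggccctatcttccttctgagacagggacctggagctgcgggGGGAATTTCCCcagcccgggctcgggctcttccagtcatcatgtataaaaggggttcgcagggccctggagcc
Ccl9: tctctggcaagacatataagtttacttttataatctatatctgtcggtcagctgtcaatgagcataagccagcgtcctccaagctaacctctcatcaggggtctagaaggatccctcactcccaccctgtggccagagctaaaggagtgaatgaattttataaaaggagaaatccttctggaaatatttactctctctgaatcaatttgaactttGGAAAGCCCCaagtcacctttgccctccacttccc
Ccl6: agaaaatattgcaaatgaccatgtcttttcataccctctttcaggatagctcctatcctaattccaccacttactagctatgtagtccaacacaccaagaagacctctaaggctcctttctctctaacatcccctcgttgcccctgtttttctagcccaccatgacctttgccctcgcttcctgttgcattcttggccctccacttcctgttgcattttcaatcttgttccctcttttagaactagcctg
Cxcl13: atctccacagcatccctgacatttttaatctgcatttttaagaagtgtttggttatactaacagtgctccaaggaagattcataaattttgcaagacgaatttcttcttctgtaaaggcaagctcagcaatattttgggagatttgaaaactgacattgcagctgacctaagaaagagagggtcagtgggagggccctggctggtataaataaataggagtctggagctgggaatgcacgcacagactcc

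Cxcl1, Cxcl2 and Cxcl3 carried the same 11-base match, which ended 60, 86 and 62 bases before the start. Ccl9 had a 10-base match 25 bases before its start, and Ccl6 and Cxcl13 had no match to these letters in the window. Of the 33 members, 23 had a window in the RefSeq table, some with several starts, and 7 of their 26 windows (26.9%) held a match, against 7.25% of all 32851 windows of the same length. Besides the 4 shown or named above with a match, these were Cxcl10, with 2 matches, Ccl20 and Ccl1. The sequence TATAAA, the core of a TATA box, was found on either strand in 9 of the 26 windows, among them those of Cxcl13, Cxcl3 and Ccl9, and in 12.4% of all windows; TGANTCA, the core of AP-1 sites, was found in 3 and in 6.75%. In these windows 0 of them overlapped an NF-kappaB match. Many of these genes arose by duplication and share sequence for that reason, and a match describes letters only. On the arrays described below, Cxcl1 had a bright probe set while those of Cxcl2 and Cxcl3, with the same match, were dim. The window table held no entry for Cxcl5, Ccl2 and Ccl7.

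Signals were log2 values per probe set. Bright means a mean over the 4 arrays above the 75th percentile of all probe sets, 8.18, and dim means below their median of 5.95. Probe sets bind with different strength, so the order of signals is not an order of RNA amounts. By this measure 7 members were bright, 13 dim and 13 between. The bright ones were Ccl9, Ccl2, Cxcl12, Ccl7, Cxcl1, Cxcl13 and Cxcl5. Cxcl5, at percentile 76.4, was the last inside the limit and Cxcl16, at 72.7, the first outside it. The dim ones were Cxcl9, Ccl1, Ccl27a, Ccl22, Ccl20, Ccl11, Cxcl15, Cxcl11, Xcl1, Ccl3, Cxcl3, Cxcl2 and Ccl12.

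**Figure D1:**
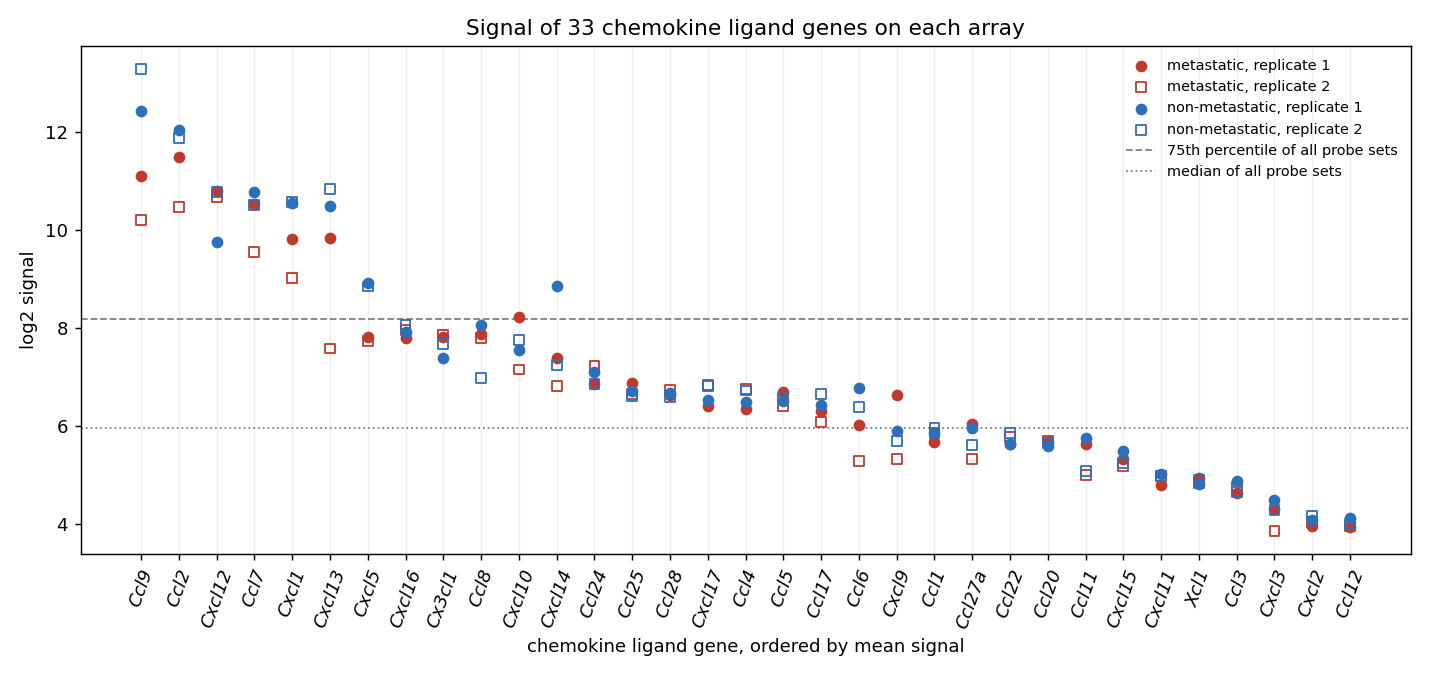
Log2 signal of the 33 chemokine ligand genes on each of the 4 arrays (1 point per array, red metastatic, blue non-metastatic, circles replicate 1, open squares replicate 2), ordered by mean signal; the lines mark the 75th percentile (8.18) and the median (5.95) of all probe sets. At the bright end the red points lie below the blue ones for Ccl9, Ccl2, Cxcl1, Cxcl13 and Cxcl5, while most members further right have all 4 points close together.

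Of the 7 bright chemokine ligands, 6 had a lower mean signal in the metastatic group and 1, Cxcl12, a higher one. Their median difference (metastatic minus non-metastatic) was -1.11 on the log2 scale, where the median over all bright genes was 0.00. Cxcl5 reached the limit of 8.18 only through its non-metastatic arrays, with group means of 7.77 and 8.88, so its place among the bright genes depends on the difference counted. Without Cxcl5 the split was 5 lower and 1 higher of 6, with a median of -1.05. The 26 other members split into 16 lower and 10 higher (median -0.06). All 33 members together split into 22 lower and 11 higher (median -0.11), and the median over all genes was 0.00. The split of 22 and 11 was the same with the values as deposited and with arrays centred on their medians.

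None of the 33 passed limma with Benjamini-Hochberg adjustment over the 45037 probe sets at 0.05, and neither did any other gene (0% of genes). The smallest adjusted p of a member was 0.167, for Cxcl5. At an unadjusted p under 0.05, 6 members were lower and 0 higher, where 4.07% of all genes were lower and 2.63% higher at that level. Of the 7 bright members 5 were among them (4 of 6 without Cxcl5), where 5.63% of all bright genes were. Differences of at least 2-fold downward were seen for 4 of the 7 (3 of 6 without Cxcl5), and for 0.871% of bright genes; these were also the only such members of the 33, where 0.704% of all genes reached that size. Without metastatic replicate 2 that count was 2, namely Ccl9 and Cxcl5; it reached 8 once metastatic replicate 1 was left out and 7 once non-metastatic replicate 2 was. The 2 metastatic arrays lay below both non-metastatic ones for 10 members and above both for 2, where 17.3% and 17.2% of all genes did. For the bright members the first count was 5 of 7 (4 of 6 without Cxcl5), where 19.8% of bright genes did. With 2 arrays a group, the smallest p of an exact permutation test, two-sided, is 0.33. Leaving out an array leaves 1 array in a group, so p-values of such fits are not counted here. The size of the differences depended on single arrays. Without metastatic replicate 1, Cxcl13 and Cxcl1 stood at -3.08 and -1.53, and without metastatic replicate 2 at -0.82 and -0.74.

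**Figure D2:**
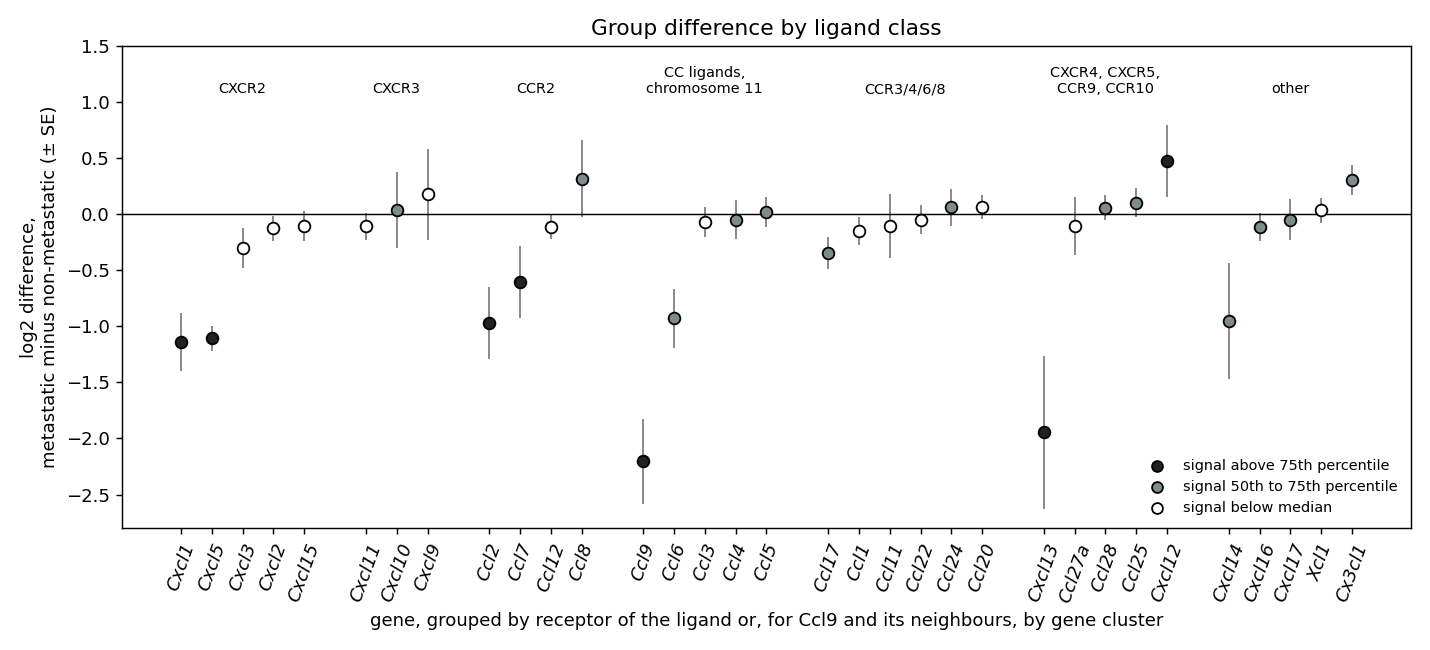
Log2 difference, metastatic minus non-metastatic, with its limma SE for each of the 33 genes. Genes are grouped by a textbook receptor of the ligand or, for Ccl9 and its neighbours, by their gene cluster on chromosome 11. Fill gives the brightness of the probe set. Differences past -0.9 occur in 5 of the 7 groups, at Cxcl1 and Cxcl5, Ccl2, Ccl9 and Ccl6, Cxcl13, and Cxcl14; Ccl7 stands at -0.60 and the other members lie between -0.35 and 0.47.

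Ligands of CXCR2, the receptor that draws neutrophils, were lower for 5 of 5 genes by their representing probe sets. Of the 5, 2 were lower at an unadjusted p under 0.05. Over all genes, 50.1% were lower, and 4.07% at that level. Cxcl5 had signals of 7.82 and 7.72 on the metastatic arrays and 8.91 and 8.84 on the non-metastatic ones. The groups did not overlap, and the replicates lay within 0.10 of each other. The difference was -1.11 (SE 0.11), or 2.15-fold lower signal (7.77 ± 0.07 against 8.88 ± 0.05; mean ± SD, n = 2 each), and it kept between -1.16 and -1.06 under every alternative run.

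Cxcl1, a further CXCR2 ligand, had signals of 9.81 and 9.02 on the metastatic arrays and 10.55 and 10.56 on the non-metastatic ones. The non-metastatic arrays nearly coincided and metastatic replicate 2 was the lowest. Its difference was -1.14 (SE 0.26), a 2.20-fold lower signal, and -0.74 without metastatic replicate 2. The representing probe set is marked by the array's naming as able to bind several transcripts; a second one, not so marked, gave -1.38 (SE 0.37), and the third, marked likewise, -0.31 (SE 0.23). Cxcl2, Cxcl3 and Cxcl15 were dim on all 4 arrays, at 3.96 to 4.17, 3.85 to 4.48 and 5.18 to 5.49. Their differences were -0.12, -0.30 and -0.11. The other probe set of Cxcl15, also dim, went the other way, at 0.23 (SE 0.13), with both metastatic arrays above the others. For dim probe sets a small difference does not show that the RNA was equal.

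CCR2 ligands, which bring monocytes out of the blood, had 2 bright members that were lower mainly on 1 array. Ccl2 had signals of 11.49 and 10.47 on the metastatic arrays and 12.02 and 11.87 on the non-metastatic ones, a difference of -0.97 (SE 0.32). The groups did not overlap, yet the metastatic replicates lay 1.02 apart, more than the group difference. The value was -1.48 without metastatic replicate 1 and -0.46 without metastatic replicate 2. Ccl7 had 10.52 and 9.54 against 10.76 and 10.51, a difference of -0.60 (SE 0.32). Here metastatic replicate 1 lay between the non-metastatic arrays, so the groups overlapped, and the difference was -0.11 without metastatic replicate 2 and -1.10 without replicate 1. Ccl8 was listed with this class only to order the text. Named after its values were seen, it had 7.87 and 7.79 against 8.06 and 6.97. Its difference was 0.32 (SE 0.34), and its non-metastatic arrays lay 1.09 apart. Ccl12 was dim, at 3.94 to 4.12.

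In the further CC cluster of chromosome 11, which holds Ccl5, Ccl9, Ccl6, Ccl3 and Ccl4, 2 neighbouring genes were lower at an unadjusted p under 0.05 and the others had differences near 0. Ccl9, a CCR1 ligand made by myeloid and other cells, had the largest difference of the 33 in either direction and the highest signal. Its values were 11.09 and 10.21 on the metastatic arrays and 12.42 and 13.28 on the non-metastatic ones. The groups lay more than a log2 unit apart, and the replicates of each group differed by 0.88 and 0.86. The difference was -2.20 (SE 0.38), a 4.60-fold lower signal (limma adjusted p = 0.360). The other probe set of Ccl9 gave -2.20 (SE 0.41) with a mean signal of 10.71, and the value stayed between -2.64 and -1.76 over the alternatives.

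Ccl6, a close relative of Ccl9, was dimmer, with 6.01 and 5.29 against 6.78 and 6.38. The groups did not overlap, and the difference was -0.93 (SE 0.27), with -0.57 without metastatic replicate 2. Its other probe set was dim (4.92) and stood at -0.17 (SE 0.12), and the mean over both was -0.55. Ccl3, Ccl4 and Ccl5 had differences of -0.07, -0.05 and 0.02, each smaller than its SE.

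Macrophages are a known source of Ccl9 and Ccl6, and leukocyte depletion differs between the groups by the label. Of 26 leukocyte markers 24 were measured, 16 of them lower and 8 higher in the metastatic group, with a median of -0.07. Of all genes, 50.1% were lower, and 4.07% were lower and 2.63% higher at an unadjusted p under 0.05. These shares stand beside the counts of each list below. Their mean log2 signal was 5.80 to 5.82 on the metastatic arrays and 5.91 to 6.01 on the non-metastatic ones. Of the 24, 14 were dim and 1 was bright. The pan-leukocyte gene Ptprc was dim on every array, between 4.01 and 4.28, and the macrophage gene Adgre1 between 4.63 and 5.08. The bright one was Csf1r, the macrophage growth factor receptor gene, with 9.61 and 9.26 against 9.88 and 10.07. At an unadjusted p under 0.05, 3 markers were lower and 0 higher. These were the lysozyme gene Lyz2 at -1.47 (SE 0.44), Csf1r at -0.54 (SE 0.16) and the Fc receptor gene Fcgr3 at -0.52 (SE 0.17). Lyz2 had 6.06 and 6.16 against 8.29 and 6.86, so its non-metastatic arrays lay 1.42 apart. Markers of mural cells, the contractile cells around vessels, were lower for 9 of 10, with 6 at an unadjusted p under 0.05 and a median of -0.57, and their mean signal was 7.72 to 8.07 against 8.48 to 8.69. Markers of lymphatic endothelium were lower for 7 of 10, of blood and pan endothelium for 9 of 14, of epithelium and mesothelium for 8 of 10 and of platelets for 2 of 4. Among lymphatic markers at an unadjusted p under 0.05, Pdpn and Nrp2 were higher, by 0.51 (SE 0.11) and 0.71 (SE 0.24). Lyve1 was lower, at -2.76 (SE 0.64). Of the blood and pan endothelial markers 3 were lower at that level, the largest difference being Emcn at -2.53 (SE 0.29). The only epithelial or mesothelial one was Wt1, higher by 1.00 (SE 0.24), and the median of that list was -0.05. The part of any of these in the lower chemokine signals was not tested.

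**Figure D3:**
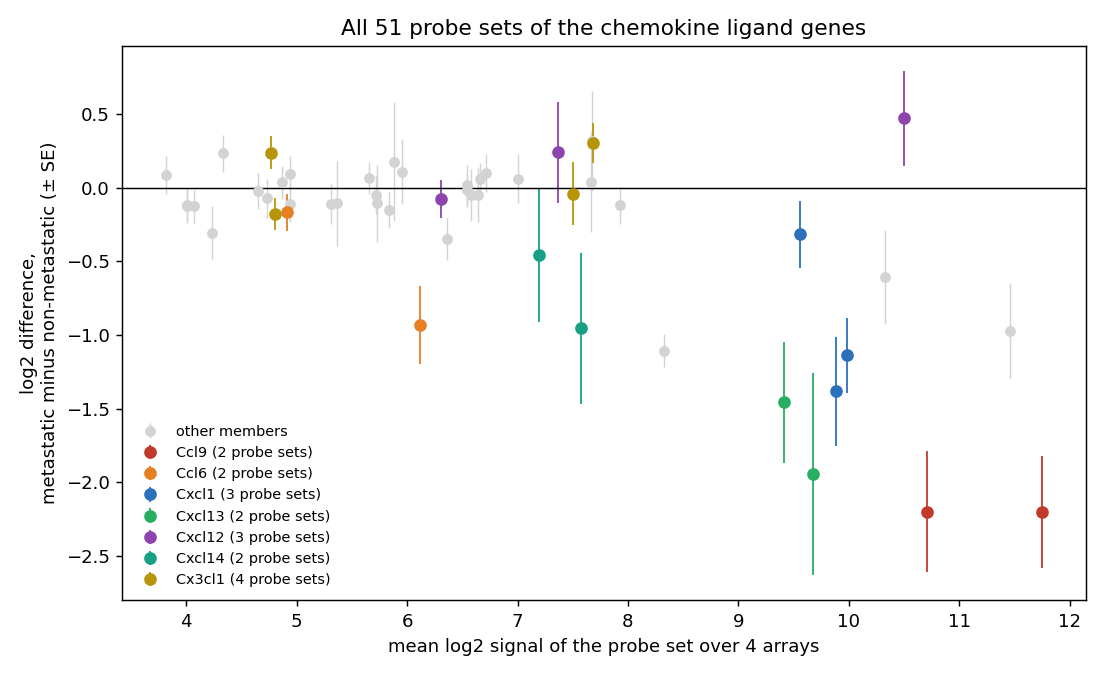
Each of the 51 probe sets of the chemokine ligand genes by its mean log2 signal over the 4 arrays (x axis) and its log2 difference with SE (y axis); colours mark 7 genes with several probe sets. Both probe sets of Ccl9 stand at -2.20, those of Cxcl13 at -1.95 and -1.46, and the third of Cxcl1 stands apart from the others at -0.31.

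Of 5 homeostatic ligands measured, 2 had lower and 3 higher mean signals in the metastatic group, with 1 at an unadjusted p under 0.05. This was Cxcl13, the CXCR5 ligand that gathers B cells into follicles. It had signals of 9.84 and 7.58 on the metastatic arrays and 10.48 and 10.83 on the non-metastatic ones. Both metastatic arrays were below the others, but they differed by 2.26, the widest replicate gap among the 33 genes. The difference was -1.95 (SE 0.69); leaving out metastatic replicate 1 made it -3.08, and leaving out replicate 2 of that group made it -0.82; the other probe set gave -1.46 (SE 0.41).

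Cxcl12, the CXCR4 ligand of stromal cells, had 10.80 and 10.67 on the metastatic arrays against 9.75 and 10.77 on the non-metastatic ones. Only non-metastatic replicate 1 stood low and the groups overlapped. The difference of 0.47 (SE 0.32) was -0.038 without that array and 0.98 without non-metastatic replicate 2, and the other probe sets gave 0.24 and -0.07. A test of Cxcl12 against Cxcl13 was not made, and their values stand side by side only. Ccl25, Ccl28 and Ccl27a, ligands of CCR9 and CCR10, had differences of 0.10, 0.06 and -0.11, each smaller than its SE. The markers of fibroblastic reticular cells and fibroblasts, which include Cxcl13, split into 6 lower and 5 higher of 11 measured, with a median of -0.02. Among them Il7, the cytokine that lymphocytes need to survive, had 6.92 and 6.60 against 7.74 and 7.39, a difference of -0.81 (SE 0.18). Col3a1, with the next smallest p after Il7 and Cxcl13, differed by -0.21 (SE 0.14), and its groups did not overlap. Pdgfra, Pdgfrb and Col1a2, named after their values were seen, differed by 0.25 (SE 0.19), -0.02 and 0.01.

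Of the interferon-induced CXCR3 ligands, Cxcl10 and Cxcl9 varied more between the metastatic replicates than between the groups. Cxcl10, named after its values were seen, had 8.22 and 7.15 on the metastatic arrays and 7.54 and 7.76 on the non-metastatic ones, a difference of 0.04 (SE 0.34). Cxcl9, likewise, had 6.62 and 5.32 against 5.89 and 5.69, a difference of 0.18 (SE 0.41). In both genes the representing probe set was highest on metastatic replicate 1 and lowest on metastatic replicate 2. The other probe set of Cxcl9, dim at 4.58 to 4.75, did not have this order. Cxcl11 was dim, at 4.79 to 5.02.

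Ligands of CCR3, CCR4, CCR6 and CCR8, which act on eosinophils, helper T cells and dendritic cells, had low or middling signals. Ccl17 was the member with the largest difference, 6.30 and 6.08 against 6.42 and 6.66. Its groups did not overlap, and the difference was -0.35 (SE 0.14), with -0.23 without non-metastatic replicate 2. Ccl1, Ccl11, Ccl22, Ccl24 and Ccl20 had differences between -0.15 and 0.07. Ccl26 was not analysed here.

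Of the remaining ligands, Cx3cl1, the membrane-bound chemokine that is shed by proteases, was the only one of the 10 members named by the rule, apart from Cxcl12, with a positive value. Its signals were 7.82 and 7.85 against 7.39 and 7.67, and both metastatic arrays were above the others. The difference was 0.30 (SE 0.14), its 3 other probe sets gave -0.04, -0.18 and 0.24, and the mean over all 4 was 0.08. Without non-metastatic replicate 1 the difference of Cx3cl1 was 0.16. Cxcl14, an epithelial and stromal chemokine named after its values were seen, had 7.38 and 6.82 against 8.86 and 7.25. Its difference of -0.95 (SE 0.52) came with a gap of 1.61 between the non-metastatic arrays, and the groups overlapped. Cxcl16, Cxcl17 and Xcl1 had differences of -0.12, -0.05 and 0.04.

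Across the bright members the 2 metastatic arrays also had a fixed order. Metastatic replicate 2 was below replicate 1 for 7 of 7, by 0.10 for Cxcl5 and up to 2.26 for Cxcl13, while this held for 49.7% of all bright genes. The mean log2 signal of the 7 was 10.19 and 9.31 on the metastatic arrays and 10.70 and 10.95 on the non-metastatic ones. Replicates of a group carry no order of their own, so this describes 1 pool with lower signals than the other for these probe sets. The other probe sets of Cxcl12 had the opposite order, with 7.33 and 7.65, and with 6.20 and 6.34. Members that were not bright went both ways, among them Ccl6 with 6.01 and 5.29 and Ccl4 with 6.35 and 6.76. For Cxcl5 the group difference of -1.11 was far larger than its gap of 0.10.

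Neighbouring genes of a chemokine cluster differed in signal level and in the size of the group difference. On chromosome 5 the order of neighbours in RefSeq is Cxcl5, Ppbp, Pf4, Cxcl3, Cxcl15, Cxcl1 and Cxcl2. The bright and lower genes Cxcl5 and Cxcl1 are separated there by Ppbp, Pf4, Cxcl3 and Cxcl15, whose differences were 0.00, -0.27, -0.30 and -0.11. Of these, Ppbp, Cxcl3 and Cxcl15 were dim, so their small differences do not show that the RNA was equal. The platelet chemokine genes Ppbp and Pf4 are outside the naming rule, and their signals ran from 4.71 to 4.95 and from 6.36 to 6.90. On chromosome 11 Ccl2 and Ccl7 are neighbours and were both bright with lower mean signals, though the groups of Ccl7 overlapped. The next gene, Ccl11, was dim at 5.00 to 5.74. In the further cluster of that chromosome Ccl9 and Ccl6 are neighbours and lie between Ccl5 and Ccl3, which differed by 0.02 and -0.07.

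**Figure D4:**
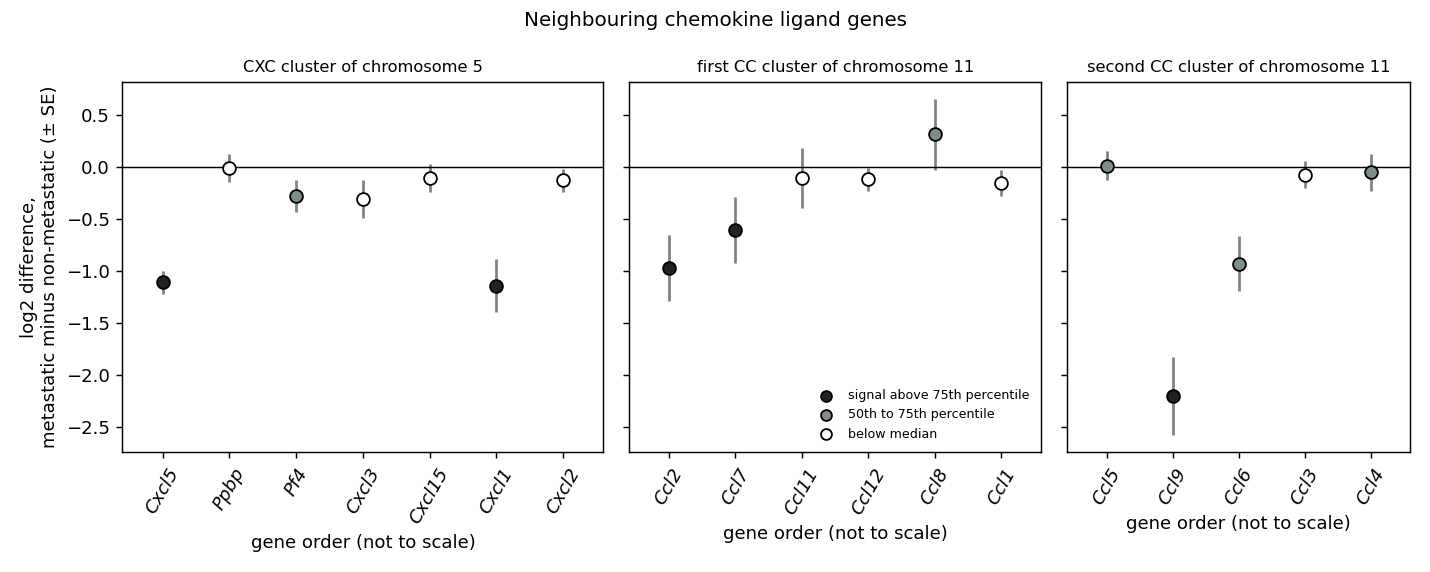
Log2 difference, metastatic minus non-metastatic, with its limma SE for neighbouring chemokine ligand genes in their order along chromosomes 5 and 11 (equal spacing, not to scale); fill gives brightness. Cxcl5 and Cxcl1 stand at -1.11 and -1.14 with 4 genes at -0.30 to 0.00 between them. Ccl2 with Ccl7 and Ccl9 with Ccl6 form adjacent pairs with lower means, though the groups of Ccl7 overlapped.

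Most receptors of these ligands were dim. Ccr2, the receptor of Ccl2 and Ccl7, and Ccr10, both named after their values were seen, lay between dim and bright. Their percentiles were 66.7 and 58.2. Of 17 chemokine receptor genes measured, 15 were dim and none bright, with 13 lower and 4 higher and a median of -0.09. None passed over all probe sets, and 2 were lower at an unadjusted p under 0.05. These were Ccr1, the receptor of Ccl9 and Ccl6, with 4.19 and 4.30 against 4.73 and 4.60, and Cxcr5, the receptor of Cxcl13, with 4.55 and 4.64 against 4.82 and 5.08. Cxcr6 had the next smallest p, at -0.15 (SE 0.12). The 5 genes listed as atypical receptors, which do not signal to G proteins, were all higher with a median of 0.20, and none passed. Ackr3, the scavenger of Cxcl12, was the bright one, with 10.07 and 10.27 against 10.20 and 9.20. Its low array was non-metastatic replicate 2, whereas that of Cxcl12 was non-metastatic replicate 1. Ccrl2 and Ackr4 stood at 0.25 (SE 0.11) and 0.20 (SE 0.17).

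Among 13 measured genes of chemokine-processing enzymes and heparan sulfate carriers, 7 were higher and 6 lower, with a median of 0.07; 1 was higher and 2 were lower at an unadjusted p under 0.05. Syndecan-4, a heparan sulfate carrier encoded by Sdc4, had 10.93 and 10.79 against 11.80 and 12.01, a difference of -1.05 (SE 0.13). Sdc2 differed by -0.47 (SE 0.12), and the membrane protease gene Mmp14 by 0.61 (SE 0.18). None of the 13 passed over all probe sets.

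Genes of the inputs that induce chemokine genes gave a mixed picture, with 14 of 20 higher, 6 lower and a median of 0.07. The list holds cytokines, receptors, an adapter and an antagonist, so these counts give no direction of the inputs. At an unadjusted p under 0.05, 2 of the 20 were higher and 2 lower. Il1rn, the antagonist of interleukin-1, had 8.02 and 6.57 against 8.83 and 8.87, a difference of -1.56 (SE 0.44) with the same order of arrays as Cxcl1. Il6 had 8.77 and 9.83 against 10.23 and 10.42, a difference of -1.02 (SE 0.34), and here metastatic replicate 1 was the lowest. The receptor gene Tlr2 differed by 0.51 (SE 0.19). None of the 20 passed over all probe sets. The cytokine genes Tnf and Il1b, named after their values were seen, differed by 0.06 and -0.06.

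NF-kappaB subunits and feedback genes were lower for 10 of 13 measured and higher for 3, with a median of -0.18. Tnfaip3, which shuts the pathway off and is itself induced by it, had 7.25 and 7.31 against 7.79 and 7.85, a difference of -0.54 (SE 0.11). Birc3, also induced by the pathway, differed by -0.57 (SE 0.16), and Bcl3, an atypical inhibitor protein, by 0.39 (SE 0.11). At an unadjusted p under 0.05, 2 of the 13 were lower and 1 higher, and none passed over all probe sets. Nfkbia, the inhibitor gene named after its values were seen, had 11.58 and 11.13 against 11.84 and 11.65. The part of NF-kappaB in the lower chemokine signals was not tested.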

How the data were processed

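Gene expression was measured on 4 Affymetrix arrays, 1 per preparation, from 3 ug of RNA and 20 ug of labelled cRNA, per the labels' protocols. The values deposited by the authors are log2 signals per probe set (range 3.10 to 14.87), a scale read from the values. The summarisation software and any normalization were not given in the sources used here, and without detection calls no gene can be called absent. Precision is limited by the number of arrays.

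Array medians differed by 0.116, over a limit of 0.1, so the arrays were quantile normalized after leaving out 64 control probe sets. All 45037 others were fitted with limma (lmFit, eBayes; 2 residual and 3.71 prior degrees of freedom), and p-values were adjusted by Benjamini-Hochberg over all of them. Of these, 34945 had 1 gene symbol, 932 several and 9160 none in the platform annotation; symbols were updated through Entrez numbers for 34741. The labels call the samples biological replicates, and no arrays held identical values throughout. Over the deposited values without controls, the metastatic arrays correlated at 0.9905, the lowest of all pairs of arrays. The non-metastatic arrays correlated at 0.9952, and arrays of different groups at 0.9907 to 0.9932. Each metastatic array was thus closer to both non-metastatic arrays than to the other metastatic one. Same-numbered arrays deviated together with a correlation of 0.25, but the labels state no pairing.

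Signals on all arrays are printed for bright members, members at an unadjusted p under 0.05 and the 8 largest differences with groups apart, 10 genes in all; of each related list the 3 genes with the smallest p are named. The members, lists, ligand groups and tests were chosen with earlier results of these data known. Alternatives were other scalings, a filter on dim probe sets, other probe set choices, other moderation, a replicate block and each array left out. The fit was tested on simulated data. Promoter windows and gene order came from RefSeq (GRCm38.p6). R 4.3.3, limma 3.58.1, Python 3.11.15, pandas 2.3.3 and matplotlib 3.10.9 were used.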

Additional observations from a re-analysis of the deposited data

How the results depend on the processing

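The 11 alternatives left the median difference of the 33 genes between -0.13 and -0.07, and the difference of each of the 10 named genes kept its sign in 109 of 110 gene and setting pairs; Cxcl12 alone turned, to -0.038 without non-metastatic replicate 1 (0.98 without non-metastatic replicate 2). Under the scalings, filters, probe set choices or trend and robust moderation, 0 members passed. With a replicate block, for which no pairing is stated in the labels, 1 member passed, Cxcl5 (limma adjusted p = 0.0274), while 145 of all probe sets did. With single arrays left out, 2 to 8 members were at least 2-fold lower. The groups then lay apart downward for 12 to 19 members and upward for 4 to 9, counts that 1 array in a group makes easier to reach. A fit of this kind assumes that the lone array varies like the other group, so its p-values are not counted here. Upward, the groups lay apart for 1 member with the values as deposited, for 1 among the brighter probe sets alone and for 3 with arrays centred on their medians, against 2. With the latter filter 20 of the 33 members were measured. Scalings moved the median of all probe sets by under 0.1. Dim probe sets limit what can be seen for 13 of the 33 members.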
